A study of Papio anubis with 28 samples.

Results

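The genes described here are 40 cell division genes, chosen by name: components of the DNA replication machinery, enzymes that make deoxynucleotides, transcription factors of the cell cycle, cyclins with their kinase CDK1, and mitotic genes. Each of the 40 has 1 row among the 27533 genes of the table, and 38 of them were among the 17177 genes with enough reads to be tested. The series holds 28 RNA-seq libraries of urinary bladder tissue from 14 wild-type olive baboons (Papio anubis), 2 libraries per animal. Each animal gave native bladder and the graft joined to it. Entero is the label of 5 animals whose bladder was augmented with a piece of ileum, as in enterocystoplasty. Another 5 animals labelled SIS and 4 labelled PRS carried scaffolds seeded with primary bone marrow cells, named as MSC and CD34+ HSPC, and their grafts are the tissue that regenerated there. The native bladders of all 3 arms come from operated animals, and no unoperated bladder is analysed here. The sources used here do not give the meaning of PRS, the age of the animals or the time since surgery.

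As background, a cell that commits to division passes from G1 into S phase when E2F transcription factors switch on the genes for replication and nucleotide synthesis. The MCM helicase is loaded before S phase by factors such as CDC6 and CDT1, and is fired in S phase with factors such as CDC45. Cyclin B with CDK1 then drives the cell into mitosis, where the anaphase-promoting complex with CDC20 releases the chromosomes. Most of these transcripts are low in resting cells and high in cycling ones. The intestinal lining is renewed continually by dividing crypt cells, whereas the urothelium of the bladder is known as a slowly renewing epithelium. In bulk tissue, a lower number of dividing cells and less RNA per cell cannot be told apart.

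The libraries held 20975648 to 35669026 counted reads. Values per library are in CPM, each gene's reads scaled to a common library size by TMM, and the mean of log2 CPM over the 38 tested genes is called the mean level below. A listed 0 allows up to 3 reads, which is 0.0786 to 0.151 CPM over the 28 libraries and covers counting error only. The labelled tissues could be told apart by their markers: 10 intestinal epithelial markers summed to 2406 to 15706 CPM in ileum and 7.0 to 215 CPM elsewhere, and 11 urothelial markers to 22.9 to 67.9 CPM in ileum and 248 to 6409 CPM elsewhere. Mitochondrial transcripts took 14.0% to 33.9% of ileum reads and 4.66% to 11.6% of the others. PRS native library 2 had the most tested genes at 0, 3101, against 2688 in ileum 3 and 2629 in ileum 1. It stood apart in having 11 of the 38 cell division genes at 0, where the next highest count was 3, in PRS native 1. Entero native library 2 and PRS native library 4 stood apart from the other native libraries in the level of the cell division genes.

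By group mean, the cell division genes were highest in the ileum grafts, and the order of the other groups rested in part on single libraries. The mean level was 4.60, 4.66, 3.54, 6.04 and 5.11 in ileum libraries 1 to 5, and 2.72, 4.58, 1.24, 2.55 and 2.58 in the native bladders of the same animals. In the SIS arm it was 1.55, 1.63, 2.05, 1.69 and 1.64 in native bladder and 1.47, 1.79, 2.14, 1.36 and 1.44 in regenerated tissue. In the PRS arm it was 1.23, 0.31, 3.11 and 4.83 in native bladder and 1.25, 1.67, 3.01 and 3.26 in regenerated tissue. The animal codes carry F for animals 1 to 3 and M for 4 and 5 in the Entero and SIS arms. In the PRS arm they carry F for animals 1 and 2 and M for 3 and 4. The M animals lay above the F animals in both PRS tissues and in ileum, and under them in SIS regenerated tissue. In Entero native and SIS native bladder they lay between F animals. The letters were not tested as a factor. Group means ± SD were 4.79 ± 0.91 in ileum (n = 5), 2.73 ± 1.19 in Entero native (n = 5), 2.37 ± 2.01 in PRS native (n = 4), 2.30 ± 0.98 in PRS regenerated (n = 4), 1.71 ± 0.20 in SIS native (n = 5) and 1.64 ± 0.32 in SIS regenerated tissue (n = 5). From Entero native downwards, each group mean differed from the next in this order by less than the larger of the 2 SDs. Without PRS native 4 the PRS native mean was 1.55, under both SIS groups, and PRS native 1 and 2, PRS regenerated 1 and Entero native 3 lay under every SIS library. The spread between animals was widest in PRS native bladder and narrowest in SIS native bladder.

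**Figure D1:**
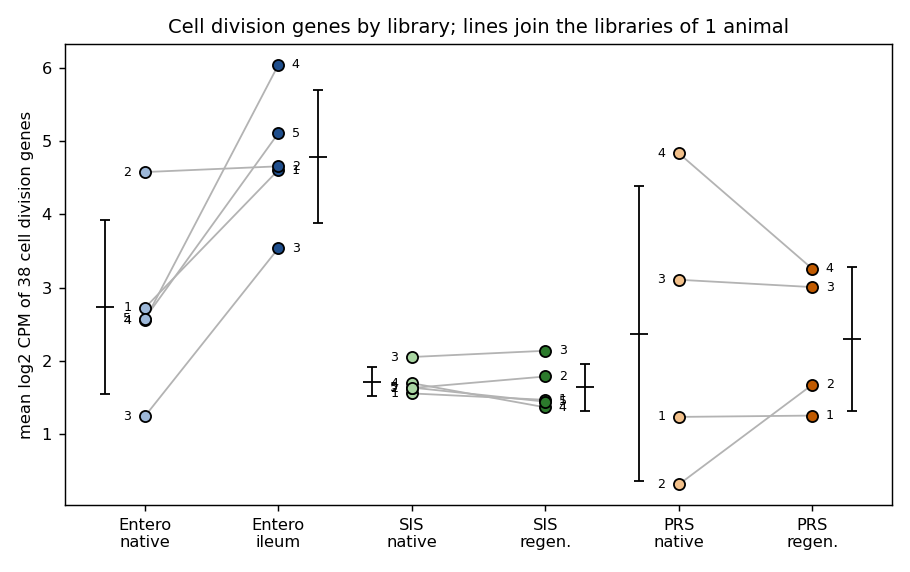
Mean log2 CPM of the 38 tested cell division genes (y axis) in each library, by group (x axis); grey lines join the 2 libraries of an animal, numbers are the library numbers, and the bar beside each group is its mean ± SD. The Entero lines rise in animals 1, 3, 4 and 5 and are nearly flat in animal 2, the SIS lines are flat, and in the PRS arm 1 line rises and 1 falls.

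Within animals, the mean level was higher in ileum than in native bladder by 1.88, 0.08, 2.29, 3.49 and 2.53 in Entero animals 1 to 5, a mean of 2.05 ± 1.25 (SD, n = 5). Of the 38 genes, 37, 23, 32, 38 and 37 were higher in the ileum graft of those animals. The difference in the SIS arm was -0.09, 0.16, 0.09, -0.33 and -0.19, with a mean of -0.07 ± 0.20 (SD, n = 5). In the PRS arm it was 0.02, 1.36, -0.10 and -1.58, with a mean of -0.07 ± 1.20 (SD, n = 4), and only 2 of 38 genes were higher in the graft of animal 4. Without animal 4 the PRS mean was 0.43, and without animal 2 the Entero mean was 2.55. Native bladder of Entero animal 2 was already at the level of an ileum graft, and the small difference in that animal comes with that high native value.

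**Figure D2:**
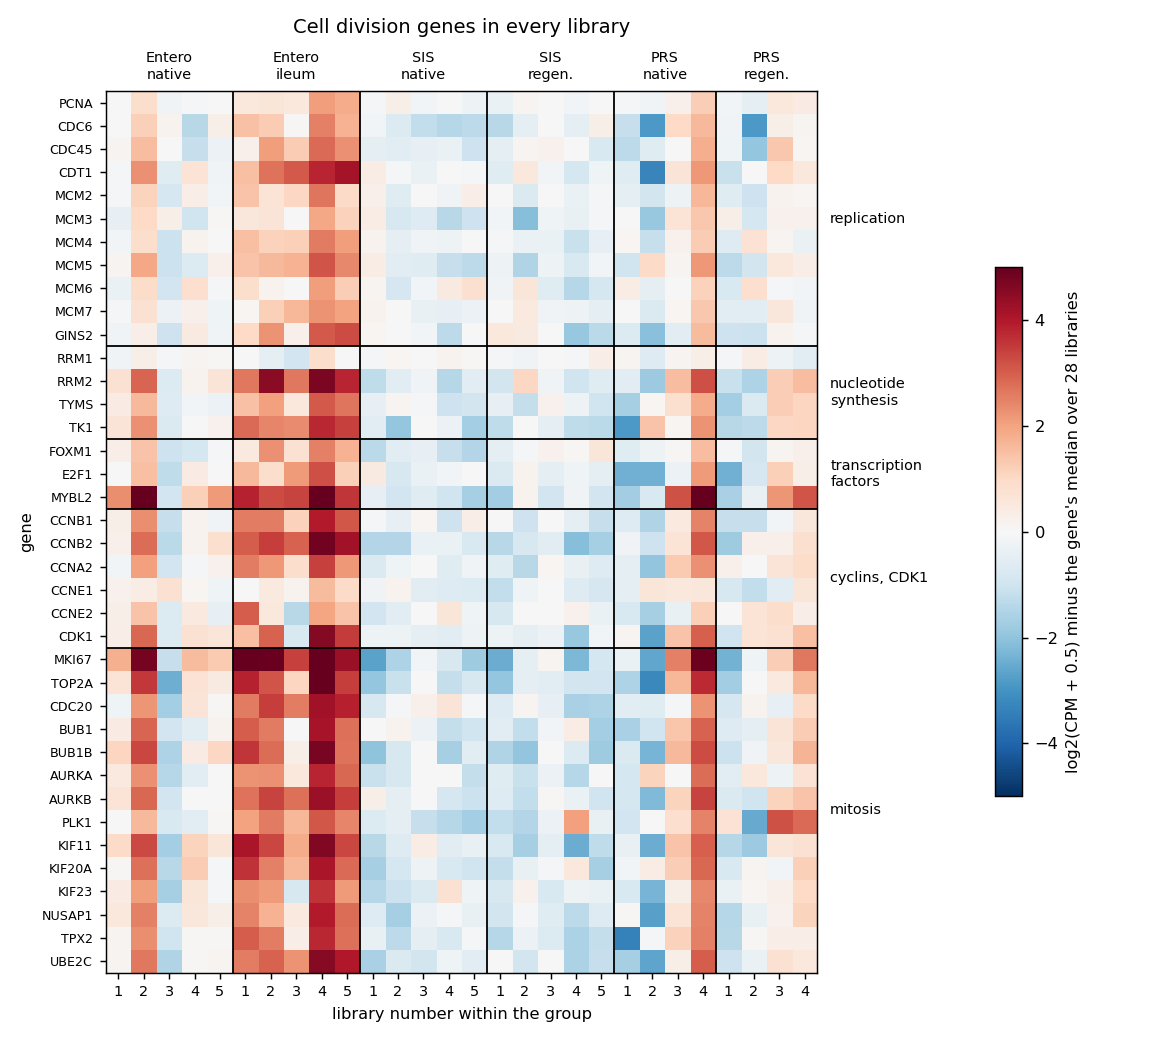
Each of the 38 tested genes (rows, grouped by role) in each of the 28 libraries (columns), as log2(CPM + 0.5) minus the gene's median over all libraries, with colours ending at -5 and 5. Ileum libraries, Entero native library 2 and PRS native library 4 are red over most rows, RRM1 varies least, and PLK1 is a stronger red than the other mitotic genes in SIS regenerated 4 and PRS regenerated 3 and 4.

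Between ileum graft and native bladder, 11 of the 38 genes were higher and 0 lower at an adjusted p under 0.05 (edgeR's quasi-likelihood test, Benjamini-Hochberg over all genes tested). Over all genes tested, 7.72% were called higher and 7.33% lower. With mitochondrial genes left out of the library sizes, 9 of 38 were higher. The fitted log2 fold change was positive for 37 of 38 genes, with a median of 1.84 against -0.03 for all genes tested, and 24 of 38 had an unadjusted p under 0.05. The ileum was higher in every one of the 5 animals for 20 of 38 genes (10.3% of all genes tested), and the 5 ileum values lay wholly above the 5 native values for 5 of 38, CDC20, MCM4, CCNB2, PLK1 and TK1 (5.52% of all genes tested). The genes called were PCNA, MCM2, MCM4, MCM7 and CDT1 of 11 replication genes, RRM2 and TYMS of 4 nucleotide genes, FOXM1 of 3 transcription factors, CCNB1 and CCNA2 of 6 genes in the cyclin and CDK1 group, and CDC20 of 14 tested mitotic genes. Mean levels by role, native then ileum, went from 3.54 to 5.13 for replication, from 3.72 to 5.53 for nucleotide synthesis, from 2.09 to 4.03 for transcription factors, from 2.08 to 3.91 for cyclins and CDK1, and from 2.24 to 4.85 for mitosis, the role with the largest difference and the fewest calls for its size. SDs over the 5 native libraries were 0.67 for replication and 1.68 for mitosis.

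Only MCM4, CDC20 and MCM7 passed the threshold in all 18 alternative analyses run. PCNA passed in 13, CCNB1, CDT1 and RRM2 in 11, MCM2 in 10, and CCNA2, FOXM1 and TYMS in 8. A fit of the 2 Entero groups alone called 9 genes, of which 5 were among the 11, and lost PCNA, CCNB1, CCNA2, MCM2, TYMS and FOXM1. The number called depended on single libraries: it was 23 without Entero native 2, 3 without native 1, native 5 or ileum 4, 4 without native 3, native 4 or ileum 5, and 7 without ileum 2. With the animal as a block the number was 20, of which 10 were among the 11, CDT1 being lost at an adjusted p of 0.0563 (0.00521 to 0.101 over its 18 alternatives). Without Entero native 2 and PRS native 4 together it was 27, including all 11. Without Entero native 2 and ileum 4, the highest library of each group, it was 16, of which 10 were among the 11. The share of all genes tested that passed is not given for the alternatives. A general shift in calling therefore cannot be told apart from one in these genes.

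**Figure D3:**
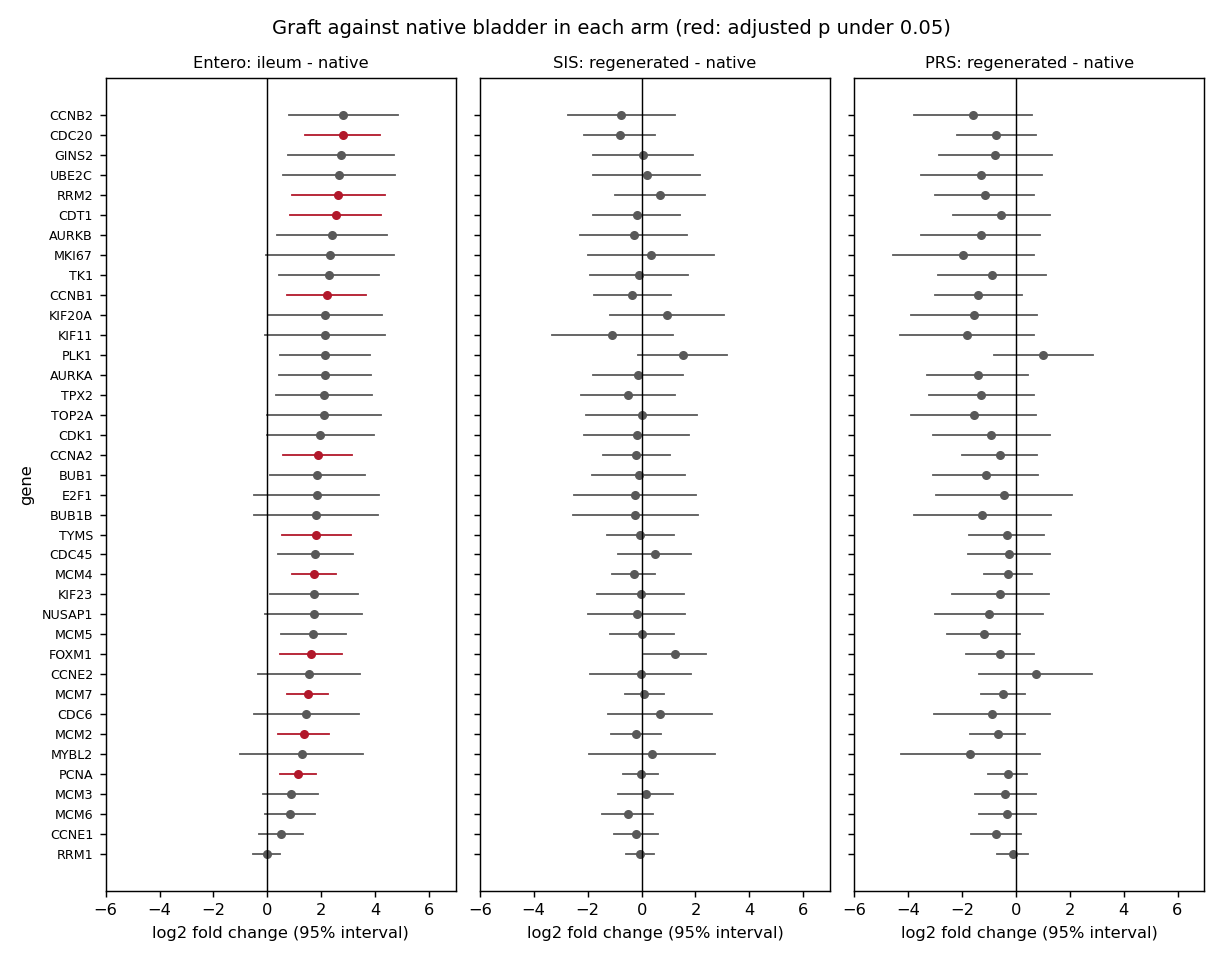
Fitted log2 fold change of graft against native bladder (points) with its 95% interval (bars) for the 38 tested genes (rows, in the order of the Entero value) in the Entero, SIS and PRS arms. Red marks the 11 genes with an adjusted p under 0.05, all in the Entero arm; 37 of 38 Entero points are positive, SIS points lie around 0, and 36 of 38 PRS points are negative with intervals that cross 0.

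Among the replication genes, PCNA is the sliding clamp that holds DNA polymerases on the template. PCNA was at 46.4, 88.1, 42.3, 44.4 and 46.2 CPM in Entero native libraries 1 to 5 and at 68.6, 71.6, 67.7, 205 and 174 CPM in ileum libraries 1 to 5. PCNA in the SIS arm was at 45.2, 57.3, 43.2, 48.1 and 39.1 CPM in native and 37.3, 52.3, 47.2, 43.4 and 47.4 CPM in regenerated tissue. PCNA in the PRS arm was at 44.8, 41.8, 56.1 and 112 CPM in native and 42.9, 33.6, 67.8 and 62.3 CPM in regenerated tissue. Entero native 2 lay above ileum 1, 2 and 3, so the groups overlapped, and the other 4 native values lay under every ileum value. For PCNA the ileum minus native log2 fold change was 1.13 (SE 0.32, 95% interval 0.47 to 1.80, adjusted p = 0.0176), higher in 4 of 5 animals. MCM2, MCM4 and MCM7 are subunits of the helicase that unwinds DNA ahead of the fork. MCM2 was at 16, 37.1, 9.32, 21.3 and 15.5 CPM in Entero native libraries 1 to 5 and at 46.4, 27.5, 35, 110.1 and 33.4 CPM in ileum libraries 1 to 5. MCM2 in the SIS arm was at 20.2, 10.9, 16.9, 14.8 and 21.6 CPM in native and 17, 10.1, 17.2, 13.2 and 15.7 CPM in regenerated tissue. MCM2 in the PRS arm was at 11.9, 8.64, 14.1 and 54.8 CPM in native and 11, 7.91, 19.2 and 17.9 CPM in regenerated tissue. Entero native 2 lay above ileum 2, 3 and 5, and PRS native 4 above all ileum libraries but ileum 4. For MCM2 the log2 fold change was 1.35 (SE 0.45, 95% interval 0.41 to 2.28, adjusted p = 0.045), higher in 4 of 5 animals.

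MCM4 was at 17.1, 35.1, 8.69, 21 and 18.6 CPM in Entero native libraries 1 to 5 and at 53.8, 41.8, 43, 115 and 81.8 CPM in ileum libraries 1 to 5. MCM4 in the SIS arm was at 21.1, 13.7, 16.5, 15.5 and 19 CPM in native and 18, 14.6, 14.9, 8.50 and 14 CPM in regenerated tissue. MCM4 in the PRS arm was at 19.9, 8.24, 21.7 and 46 CPM in native and 11.7, 31.7, 20.5 and 14.8 CPM in regenerated tissue. Every ileum value lay above every Entero native value, and SIS and PRS libraries other than PRS native 4 stayed under the ileum range. For MCM4 the log2 fold change was 1.74 (SE 0.40, 95% interval 0.92 to 2.55, adjusted p = 0.00331), higher in 5 of 5 animals. MCM7 was at 39.3, 69.7, 33.2, 49.8 and 35.3 CPM in Entero native libraries 1 to 5 and at 43.9, 95.8, 131, 200.1 and 169 CPM in ileum libraries 1 to 5. MCM7 in the SIS arm was at 46.3, 41.7, 31.7, 31 and 33.7 CPM in native and 41, 57.7, 36.4, 34.4 and 29.2 CPM in regenerated tissue. MCM7 in the PRS arm was at 41.6, 25, 43.8 and 105 CPM in native and 28.5, 27.7, 61.4 and 36.9 CPM in regenerated tissue. Ileum 1 lay under Entero native 2 and 4, the other ileum libraries lay above all Entero native ones, and PRS native 4 lay above ileum 1 and 2. For MCM7 the log2 fold change was 1.49 (SE 0.36, 95% interval 0.74 to 2.24, adjusted p = 0.00575), higher in 5 of 5 animals. CDT1 loads the helicase onto origins and is destroyed once S phase begins. CDT1 was at 4.23, 24, 2.78, 7.38 and 3.90 CPM in Entero native libraries 1 to 5 and at 13.6, 32, 41.1, 69 and 89.4 CPM in ileum libraries 1 to 5. CDT1 in the SIS arm was at 5.85, 4.10, 3.44, 4.46 and 4.14 CPM in native and 2.75, 6.59, 4.05, 2.23 and 3.80 CPM in regenerated tissue. CDT1 in the PRS arm was at 2.77, 0, 7.37 and 22.1 CPM in native and 1.77, 4.47, 9.33 and 6.59 CPM in regenerated tissue. Only Entero native 2 among the native libraries of that arm exceeded an ileum value, that of ileum 1, and no CDT1 read was counted in PRS native 2. For CDT1 the log2 fold change was 2.53 (SE 0.83, 95% interval 0.83 to 4.23, adjusted p = 0.0377), higher in 5 of 5 animals.

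The other 6 replication genes did not pass. MCM5, a further helicase subunit, and GINS2, part of the GINS complex that joins helicase and polymerase, missed narrowly, with log2 fold changes of 1.71 (SE 0.59, 95% interval 0.49 to 2.92, adjusted p = 0.0511) and 2.73 (SE 0.96, 95% interval 0.77 to 4.70, adjusted p = 0.0533). CDC45, CDC6, MCM3 and MCM6 had log2 fold changes of 1.78, 1.45, 0.88 and 0.84, with adjusted p of 0.0781, 0.335, 0.255 and 0.237. In levels per kilobase of the deposited row length, PCNA was the most abundant gene of the 38 in native bladder. Its median over 14 libraries was 42.3 CPM per kilobase, against 22.2 for RRM1, the next, 7.20 for MCM4 and 6.01 for MCM7. The same medians in ileum were 66.2 for PCNA, 20.7 for RRM1, 20.6 for MCM4 and 19.5 for MCM7. CDC20 at 49.3 and RRM2 at 46.4 came after PCNA there.

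Of the nucleotide enzymes, RRM2 is the small subunit of ribonucleotide reductase that limits the enzyme to S phase. RRM2 was at 11.1, 51.7, 3.73, 7.19 and 10.3 CPM in Entero native libraries 1 to 5 and at 42.4, 158, 42.4, 180.2 and 95.2 CPM in ileum libraries 1 to 5. RRM2 in the SIS arm was at 2.37, 4.13, 5.55, 2.09 and 4.10 CPM in native and 3.15, 13.6, 5.63, 2.96 and 4.07 CPM in regenerated tissue. RRM2 in the PRS arm was at 4.15, 1.47, 19.6 and 63.2 CPM in native and 2.67, 1.88, 15.6 and 19.6 CPM in regenerated tissue. Among native libraries of the arm, number 2 lay above ileum 1 and 3, and all other native and regenerated libraries, PRS native 4 apart, lay under the ileum range. For RRM2 the log2 fold change was 2.62 (SE 0.84, 95% interval 0.90 to 4.35, adjusted p = 0.0342), higher in 5 of 5 animals. TYMS, thymidylate synthase, makes the thymidine nucleotide. TYMS was at 12.4, 30.0, 5.79, 8.53 and 7.54 CPM in Entero native libraries 1 to 5 and at 26.5, 40.3, 13.7, 81.9 and 63.1 CPM in ileum libraries 1 to 5. TYMS in the SIS arm was at 6.95, 10.4, 8.71, 4.30 and 4.74 CPM in native and 6.85, 3.79, 11, 7.83 and 4.42 CPM in regenerated tissue. TYMS in the PRS arm was at 2.60, 9.99, 16.4 and 35 CPM in native and 2.53, 5.43, 22.4 and 20.3 CPM in regenerated tissue. Entero native 2 lay above ileum 1 and 3, as did PRS native 4, and PRS native 3 and the grafts of PRS animals 3 and 4 lay above ileum 3. For TYMS the log2 fold change was 1.81 (SE 0.62, 95% interval 0.53 to 3.09, adjusted p = 0.04998), higher in 5 of 5 animals.

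RRM1, the large subunit of the same reductase, is known to persist outside S phase. RRM1 was at 47.2, 66.2, 50.1, 59 and 55.4 CPM in Entero native libraries 1 to 5 and at 53.3, 37.8, 27.3, 100.2 and 53.8 CPM in ileum libraries 1 to 5. It was higher in ileum in 2 of 5 animals, and its log2 fold change was -0.03 (SE 0.25, 95% interval -0.54 to 0.49, adjusted p = 0.962), with a sign that turned under RLE scaling (0.029). RRM1 had the smallest range of the 38 genes over the 28 libraries, 1.86 on the log2(CPM + 0.5) scale. TK1, the S-phase thymidine kinase, lay wholly above native bladder in ileum but missed the threshold, at a log2 fold change of 2.28 (SE 0.90, 95% interval 0.42 to 4.13, adjusted p = 0.0914).

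FOXM1, E2F1 and MYBL2 are transcription factors: E2F1 acts at S-phase entry, and MYBL2 and FOXM1 act on the later mitotic genes. FOXM1 was at 4.37, 9.88, 1.39, 1.61 and 3.05 CPM in Entero native libraries 1 to 5 and at 4.88, 18.1, 5.94, 21.6 and 12.2 CPM in ileum libraries 1 to 5. FOXM1 in the SIS arm was at 0.997, 2.17, 2.36, 1.23 and 0.896 CPM in native and 2.24, 3.23, 3.94, 3.48 and 5.31 CPM in regenerated tissue. FOXM1 in the PRS arm was at 2.03, 2.73, 3.46 and 10.7 CPM in native and 3.12, 1.56, 3.73 and 4.10 CPM in regenerated tissue. Ileum 1 and 3 lay under Entero native 2, and every SIS regenerated value was above the native value of its own animal. For FOXM1 the ileum minus native log2 fold change was 1.62 (SE 0.56, 95% interval 0.48 to 2.77, adjusted p = 0.0494), higher in 5 of 5 animals. E2F1 was at 2.20, 6.91, 0.595, 3.04 and 2.17 CPM in Entero native libraries 1 to 5 and at 7.75, 4.41, 11, 24.1 and 5.59 CPM in ileum libraries 1 to 5. E2F1 in the SIS arm was at 3.10, 1.02, 1.60, 1.92 and 2.13 CPM in native and 1.09, 2.48, 1.44, 1.81 and 1.43 CPM in regenerated tissue. E2F1 in the PRS arm was at 0, 0, 1.68 and 11 CPM in native and 0, 0.999, 5.54 and 2.72 CPM in regenerated tissue. Ileum 2 and 5 lay under Entero native 2, and no E2F1 read was counted in PRS native 1 and 2 and PRS regenerated 1. For E2F1 the log2 fold change was 1.82 (SE 1.12, 95% interval -0.49 to 4.13, adjusted p = 0.302), higher in 4 of 5 animals. MYBL2 spanned the third widest range of the 38 genes. MYBL2 was at 13.9, 98.1, 0.991, 6.03 and 12.1 CPM in Entero native libraries 1 to 5 and at 41.3, 27, 29.7, 185 and 33.8 CPM in ileum libraries 1 to 5. Ileum 4 and Entero native 2 were far above the others of their groups, and the log2 fold change was 1.27 (SE 1.10, 95% interval -1.0 to 3.55, adjusted p = 0.493); without ileum 4 it was 0.33 and without Entero native 2 it was 2.95.

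Among the cyclins, CCNB1 is the mitotic cyclin that activates CDK1, and CCNA2 acts from S phase to early mitosis. CCNB1 was at 5.93, 26.3, 1.86, 5.42 and 4.18 CPM in Entero native libraries 1 to 5 and at 31, 30.8, 11.4, 83.3 and 45 CPM in ileum libraries 1 to 5. CCNB1 in the SIS arm was at 4.50, 3.50, 5.15, 2.09 and 6.15 CPM in native and 4.78, 2.06, 4.81, 3.29 and 1.90 CPM in regenerated tissue. CCNB1 in the PRS arm was at 2.85, 1.35, 6.84 and 29.4 CPM in native and 1.91, 1.88, 4.38 and 7.26 CPM in regenerated tissue. Of the Entero native values, only that of library 2 lay above an ileum value, that of ileum 3, and all SIS values lay under every ileum value. For CCNB1 the log2 fold change was 2.20 (SE 0.72, 95% interval 0.73 to 3.68, adjusted p = 0.0375), higher in 5 of 5 animals. CCNA2 was at 5.82, 27.9, 3.05, 6.15 and 7.54 CPM in Entero native libraries 1 to 5 and at 40.1, 30.1, 12.2, 72.4 and 30.7 CPM in ileum libraries 1 to 5. CCNA2 in the SIS arm was at 3.72, 5.40, 6.31, 4.01 and 5.63 CPM in native and 4.07, 2.15, 6.82, 4.88 and 3.91 CPM in regenerated tissue. CCNA2 in the PRS arm was at 4.52, 1.26, 16.3 and 33.2 CPM in native and 7.59, 6.43, 10.2 and 12.5 CPM in regenerated tissue. Entero native 2 again lay above ileum 3 alone, and PRS native 4 above ileum 2, 3 and 5. For CCNA2 the log2 fold change was 1.88 (SE 0.62, 95% interval 0.60 to 3.16, adjusted p = 0.0415), higher in 5 of 5 animals.

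CDK1 is the kinase that CCNB1 and CCNA2 bind. CDK1 was at 3.54, 22.7, 1.51, 4.88 and 4.41 CPM in Entero native libraries 1 to 5 and at 8.60, 24, 1.41, 75.9 and 35.5 CPM in ileum libraries 1 to 5. CDK1 in the SIS arm was at 2.18, 2.20, 1.76, 1.72 and 2.18 CPM in native and 2.20, 1.82, 2.12, 0.362 and 2.40 CPM in regenerated tissue. CDK1 in the PRS arm was at 3.02, 0, 8.10 and 25.1 CPM in native and 1.11, 4.63, 4.96 and 8.52 CPM in regenerated tissue. Ileum 3 lay under every native value of the Entero arm and ileum 4 far above all others, so the groups overlapped widely. For CDK1 the log2 fold change was 1.97 (SE 0.96, 95% interval -0.01 to 3.95, adjusted p = 0.179), higher in 4 of 5 animals, and it passed in 1 of 18 alternatives. CCNB2, the second mitotic cyclin B, had a larger change with the 2 groups apart, at 2.82 (SE 0.98, 95% interval 0.80 to 4.84, adjusted p = 0.053). The G1/S cyclins CCNE1 and CCNE2, which act with CDK2, had log2 fold changes of 0.50 (adjusted p = 0.447) and 1.55 (adjusted p = 0.284), each higher in 3 of 5 animals.

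Of the mitotic genes, MKI67 coats mitotic chromosomes and is the usual histological mark of cycling cells. MKI67 was at 17.7, 145, 1.86, 15.2 and 12.5 CPM in Entero native libraries 1 to 5 and at 267, 163, 56.5, 368 and 105 CPM in ileum libraries 1 to 5. MKI67 in the SIS arm was at 0.323, 1.33, 4.32, 2.58 and 1.07 CPM in native and 0.441, 3.41, 5.35, 0.613 and 2.36 CPM in regenerated tissue. MKI67 in the PRS arm was at 3.73, 0.367, 30.0 and 156 CPM in native and 0.520, 4.07, 11.8 and 32.9 CPM in regenerated tissue. Entero native 2 and PRS native 4 lay inside the ileum range, above ileum 3 and 5, and every other library lay under it. For MKI67 the log2 fold change was 2.32 (SE 1.15, 95% interval -0.05 to 4.69, adjusted p = 0.187), higher in 5 of 5 animals. It was 4.02 without Entero native 2 (adjusted p = 0.0335) and 3.48 in the fit blocked by animal (adjusted p = 0.0163), and it passed in 3 of 18 alternatives, over which adjusted p ranged from 0.0163 to 0.323. TOP2A is the topoisomerase that untangles DNA before chromosomes separate. TOP2A was at 10.8, 79.7, 0.793, 11.1 and 8.97 CPM in Entero native libraries 1 to 5 and at 99.6, 61.8, 14.1, 225 and 75.9 CPM in ileum libraries 1 to 5. TOP2A in the SIS arm was at 1.35, 2.68, 6.35, 2.54 and 3.46 CPM in native and 1.32, 4.58, 4.27, 3.18 and 3.10 CPM in regenerated tissue. TOP2A in the PRS arm was at 1.89, 0.245, 21.7 and 91 CPM in native and 1.59, 6.59, 9.27 and 21.5 CPM in regenerated tissue. Entero native 2 and PRS native 4 lay above ileum 2, 3 and 5, and in PRS animal 4 the graft was lower than the native bladder, as for MKI67. For TOP2A the log2 fold change was 2.09 (SE 1.02, 95% interval -0.01 to 4.20, adjusted p = 0.178), higher in 4 of 5 animals. Without Entero native 2 it was 3.59 (adjusted p = 0.0293), and the range of adjusted p over 18 alternatives was 0.0152 to 0.367, 3 of them past the threshold.

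CDC20 is the activator of the anaphase-promoting complex. CDC20 was at 5.35, 30.7, 1.59, 10.1 and 6.46 CPM in Entero native libraries 1 to 5 and at 40.2, 73.9, 39.4, 125 and 100.3 CPM in ileum libraries 1 to 5. CDC20 in the SIS arm was at 3.34, 5.91, 7.43, 10.2 and 5.93 CPM in native and 3.76, 6.83, 4.59, 1.67 and 1.82 CPM in regenerated tissue. CDC20 in the PRS arm was at 4.04, 3.91, 6.0 and 31.6 CPM in native and 3.26, 7.19, 4.51 and 12.5 CPM in regenerated tissue. The lowest ileum value lay above the highest value of all other libraries, those of PRS native 4 and Entero native 2 included. For CDC20 the log2 fold change was 2.80 (SE 0.68, 95% interval 1.41 to 4.19, adjusted p = 0.00534), higher in 5 of 5 animals. UBE2C, the ubiquitin-conjugating enzyme of the same complex, had a log2 fold change of 2.65 (SE 1.01, 95% interval 0.57 to 4.73, adjusted p = 0.0779). The kinases AURKA, AURKB and PLK1 had log2 fold changes of 2.13, 2.39 and 2.14, and the checkpoint kinases BUB1 and BUB1B 1.85 and 1.81. The motor proteins KIF11, KIF20A and KIF23 stood at 2.14, 2.14 and 1.73, and the spindle proteins TPX2 and NUSAP1 at 2.10 and 1.71. All of these 10 missed the threshold, at adjusted p from 0.0797 for PLK1 to 0.306 for BUB1B. BIRC5 and MAD2L1 were not tested, since only 26 and 19 reads were counted for them over all 28 libraries; their rows are 429 and 618 bases long, and no comparison is drawn from them.

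The genes differed in how far they moved across the 28 libraries. On the log2(CPM + 0.5) scale MKI67 spanned 8.81, TOP2A 8.24, MYBL2 7.74, CDT1 7.49 and CDK1 7.26. At the other end RRM1 spanned 1.86, PCNA 2.59, CCNE1 2.83, MCM7 2.98 and MCM6 3.51. The 3 genes that passed in all alternatives, MCM4 (3.72), MCM7 and CDC20 (5.91), were thus not those with the widest range. Ileum 4 held the highest value of all 28 libraries for 34 of the 38 genes, ileum 5 for 2, ileum 1 for 1 and PRS regenerated 3 for 1, PLK1.

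Tissue regenerated on the SIS scaffold did not differ detectably from native bladder in these genes. Of 38 genes 0 were called in either direction by edgeR's quasi-likelihood test (0% of all genes tested), 1 reached p under 0.05 unadjusted, and 0 were called by DESeq2. The median log2 fold change was -0.08, against 0.03 for all genes tested. MKI67 was at 0.35 (SE 1.14, 95% interval -1.99 to 2.69, adjusted p = 1), TOP2A at 0.01 (SE 1.0, 95% interval -2.05 to 2.07, adjusted p = 1), PCNA at -0.03 (SE 0.32, 95% interval -0.69 to 0.63, adjusted p = 1) and CCNB1 at -0.34 (SE 0.69, 95% interval -1.77 to 1.08, adjusted p = 1) on the log2 scale. The intervals leave room for a change of more than 2 log2 units in MKI67 and TOP2A, and of less than 1 in PCNA. The 1 gene under 0.05 was FOXM1, chosen after its values were seen, at 1.25 (SE 0.56, 95% interval 0.10 to 2.39, adjusted p = 0.975). FOXM1 and CDC45 were the 2 of 38 genes that were higher in the graft of all 5 animals (4.24% of all genes tested).

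Tissue regenerated in the PRS arm did not pass the test in these genes either, with 0 of 38 called in either direction by edgeR (0% of all genes tested), 0 at an unadjusted p under 0.05 and 0 by DESeq2. The fitted log2 fold change was negative for 36 of 38 genes, with a median of -0.82 against 0.02 for all genes tested. MKI67 was at -1.95 (SE 1.28, 95% interval -4.57 to 0.67, adjusted p = 1), TOP2A at -1.56 (SE 1.13, 95% interval -3.88 to 0.76, adjusted p = 1), PCNA at -0.30 (SE 0.36, 95% interval -1.04 to 0.43, adjusted p = 1) and CCNB1 at -1.39 (SE 0.79, 95% interval -3.0 to 0.23, adjusted p = 1). Without PRS native 4 the signs turned, to 0.14, 0.32, 0.13 and 0.082. Pooling both scaffold arms also gave 0 of 38 genes called (0% of all genes tested), with 1 at an unadjusted p under 0.05 and 0 by DESeq2.

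The difference between the changes was tested directly. Taking the mean SIS and PRS change minus the Entero change, 6 of 38 genes were lower and 0 higher, against 3.52% and 3.87% of all genes tested. The log2 difference was -3.57 (SE 0.82, 95% interval -5.26 to -1.88, adjusted p = 0.00642) for CDC20, -2.03 (SE 0.49, 95% interval -3.03 to -1.02, adjusted p = 0.00944) for MCM4 and -1.68 (SE 0.45, 95% interval -2.60 to -0.75, adjusted p = 0.0203) for MCM7. For CCNB1 it was -3.07 (SE 0.88, 95% interval -4.89 to -1.25, adjusted p = 0.0313), for CCNB2 -3.98 (SE 1.21, 95% interval -6.48 to -1.49, adjusted p = 0.0431) and for PCNA -1.30 (SE 0.40, 95% interval -2.13 to -0.47, adjusted p = 0.0468). CDC20 and MCM4 passed in all 35 alternatives. With the animal as a block 5 genes were lower, CDC20, MCM4 and CCNB1 among them, and the call was lost for CCNB2 (adjusted p = 0.0501), MCM7 (adjusted p = 0.0562) and PCNA (adjusted p = 0.109). The count of 6 became 20 without Entero native 2, 13 without PRS native 2, 10 without PRS native 1, 2 without Entero native 5, and 3 without Entero native 1, 3 or 4, ileum 4 or 5, PRS native 4 or PRS regenerated 1. In the same model, the SIS change minus the Entero change was lower for 2 genes, CDC20 and MCM4 (2.97% of all genes tested), a count of 5 without Entero native 2 and 1 without ileum 4, and MCM4 lost the call under the block (adjusted p = 0.0616). The PRS change minus the Entero change was lower for 2 genes, MCM7 and CDC20 (1.91% of all genes tested). MCM7 lost the call under the block (adjusted p = 0.116), and in a fit of only the 4 groups concerned both were lost (adjusted p = 0.138 for MCM7 and 0.116 for CDC20). The count of 2 was 15 without Entero native 2, 6 without PRS native 2, 5 without PRS native 1, 4 without ileum 3, 1 without Entero native 4 or PRS regenerated 2 or 3, and 0 without Entero native 1, 3 or 5, ileum 4 or 5, PRS native 4 or PRS regenerated 1. Between the PRS and SIS changes 0 of 38 genes differed (0% of all genes tested), with 1 at an unadjusted p under 0.05 and 0 by DESeq2.

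Compared graft with graft, the genes that passed were all higher in ileum than in the regenerated tissues. In SIS regenerated tissue 33 of 38 genes were lower than in ileum and 0 higher, against 10.2% and 10.9% of all genes tested, and for 26 of 38 the 5 values lay wholly under the ileum (6.33% of all genes tested). The genes that missed were PLK1, CCNE2, E2F1, CDC6 and RRM1. The log2 fold change of SIS regenerated tissue against ileum was -4.34 (SE 0.73, 95% interval -5.83 to -2.85, adjusted p = 0.000116) for CDC20, -6.12 (SE 1.16, 95% interval -8.50 to -3.74, adjusted p = 0.000447) for CCNB2 and -6.30 (SE 1.39, 95% interval -9.16 to -3.44, adjusted p = 0.00202) for MKI67. In PRS regenerated tissue 17 of 38 genes were lower and 0 higher, against 6.75% and 7.21% of all genes tested, and 17 of 38 lay wholly under the ileum (5.72% of all genes tested). CDC20 stood at -3.46 (SE 0.76, 95% interval -5.03 to -1.89, adjusted p = 0.00286) and MCM4 at -1.77 (SE 0.43, 95% interval -2.65 to -0.89, adjusted p = 0.00639). The 17 became 8 without ileum 4, 9 without ileum 5, and 4, 5 and 11 without PRS regenerated 1, 2 and 3. Other markers moved in the same comparison of SIS regenerated tissue with ileum. Intestinal epithelial markers summed to 17.4 to 195 CPM in SIS regenerated tissue and 2406 to 15706 CPM in ileum. Urothelial markers summed to 375 to 6409 CPM in SIS regenerated tissue and 22.9 to 67.9 CPM in ileum. In the test 8 of 8 B and plasma cell genes and 3 of 7 germinal centre genes were lower, and 5 of 7 fibroblast genes were higher. The part of these markers in the result was not tested. Between the 2 regenerated tissues 0 of 38 genes were called (0% of all genes tested), with 2 at an unadjusted p under 0.05, PLK1 and MYBL2, and 0 by DESeq2.

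The native bladders of the 3 arms could not be told apart by the test. Of 38 genes, 0 were called between the native bladders of any pair of arms by edgeR (0% of all genes tested in each). For SIS against Entero, 10 of 38 genes reached p under 0.05 unadjusted, and 2 were lower by DESeq2. For PRS against SIS these counts were 18 and, by DESeq2, 2 higher, and for PRS against Entero they were 0 and 0. The matching shares of all genes tested are not given, so no difference in these genes is read from the counts. The widest difference was in MYBL2, at 4.89 (SE 1.32, 95% interval 2.18 to 7.59, adjusted p = 0.536) for PRS minus SIS, followed by MKI67 at 4.63 (SE 1.31, 95% interval 1.93 to 7.33, adjusted p = 0.536). Without PRS native 4 these were 3.04 and 2.55. Entero native 2 held the highest value of its group for 36 of 38 genes and PRS native 4 for 37 of 38, and over all 14 native bladders PRS native 4 was highest for 31 genes and Entero native 2 for 6.

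The same native libraries were high in genes of B cell follicles. CXCL13, the chemokine of the follicle, was at 449.5 CPM in Entero native 2 and 458 CPM in PRS native 4, and CR2, the complement receptor of B cells and follicular dendritic cells, at 192 and 171 CPM. The 7 germinal centre genes with a row summed to 850.4 and 871 CPM in these libraries and to 842 CPM in ileum 4, the ileum library with the highest mean level. PRS native 3 and PRS regenerated 3 and 4, whose mean levels were above 3, summed to 180.2, 198 and 231 CPM. By group the sum ran from 30.1 to 850.4 CPM in Entero native, 18.1 to 842 in ileum, 17.5 to 35.0 in SIS native, 29.0 to 111 in SIS regenerated, 38.6 to 871 in PRS native and 33.4 to 231 CPM in PRS regenerated tissue. Of other marker sums, some set these libraries apart and some did not. T and NK cell markers summed to 275 CPM in Entero native 2 and 326 CPM in PRS native 4, the highest of all libraries. Crypt markers summed to 155 and 1635 CPM there, and smooth muscle markers to 7098 and 2764 CPM. The crypt sum of Entero native 2 lay within the 109 to 163 CPM of the other Entero native libraries. That of PRS native 4 was near the 1588 CPM of PRS regenerated 4. The muscle sum was lowest of all in PRS native 4 and highest, at 93188 CPM, in ileum 3, the ileum library with the lowest mean level. The other ileum libraries did not continue this order. Ileum 4 and 5, with the highest mean levels, had 37610.5 and 33466.8 CPM, and ileum 1 and 2 had 10033.8 and 4234.3 CPM. The part of any of these markers in the levels of the cell division genes was not tested.

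Across all libraries the 2 sets of genes did not always go together. Ileum 5 had a germinal centre sum of 18.1 CPM and 0.250 CPM of MS4A1, the B cell surface marker CD20, beside a mean level of 5.11. Between ileum and Entero native bladder 0 of 7 germinal centre genes and 0 of 8 B and plasma cell genes were called, with 0 and 2 at an unadjusted p under 0.05 and 0 and 1 called by DESeq2. In the same comparison 10 of 10 intestinal epithelial genes were higher and 10 of 11 urothelial genes lower. Of 8 intestinal crypt genes 0 were called, with 5 at an unadjusted p under 0.05 and 4 called by DESeq2.

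**Figure D4:**
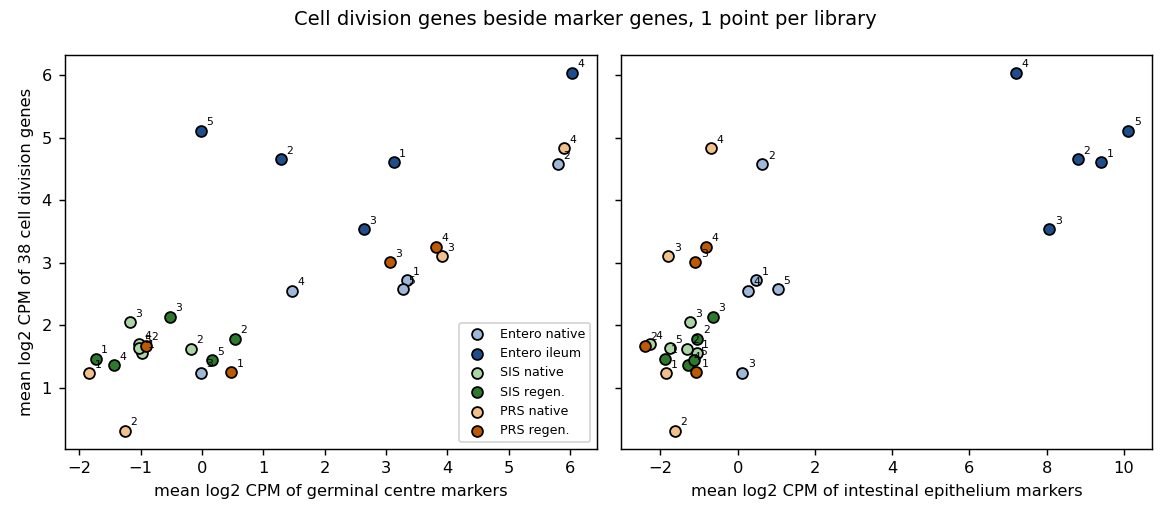
Mean log2 CPM of the 38 cell division genes (y axis) against the mean log2 CPM of 7 germinal centre markers (left) and of 10 intestinal epithelial markers (right), 1 point per library, coloured by group and numbered within it. Entero native 2, PRS native 4 and ileum 4 lie together at the upper right of the left panel, ileum 5 lies high with few germinal centre reads, and the 5 ileum libraries stand alone at the right of the other panel.

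PLK1, the polo-like kinase of mitotic entry, was high in 3 regenerated libraries in which MKI67 was lower. PLK1 was at 8.89, 27.9, 4.88, 5.69 and 8.97 CPM in Entero native libraries 1 to 5 and at 37, 55, 28.4, 78.2 and 49.4 CPM in ileum libraries 1 to 5. PLK1 in the SIS arm was at 5.17, 6.09, 3.64, 2.91 and 2.35 CPM in native and 3.43, 2.85, 7.01, 38 and 6.59 CPM in regenerated tissue. PLK1 in the PRS arm was at 4.18, 8.52, 16 and 51.5 CPM in native and 14.5, 1.12, 82.8 and 64.6 CPM in regenerated tissue. The values of SIS regenerated 4 and PRS regenerated 3 and 4 were as high as in ileum, while MKI67 there was at 0.613, 11.8 and 32.9 CPM. ERN2, an endoplasmic reticulum stress sensor of mucus-secreting epithelia, was at 126, 289 and 211 CPM in these 3 libraries, and its highest value elsewhere was 91.8 CPM in ileum 2. In RefSeq's annotation of the assembly Panubis1.0 the span of PLK1 overlaps those of ERN2 and DCTN5. The libraries are directional per the labels, but the strand setting of the counting was not stated there, and the PLK1 values are uncertain. In all, 13 of the 38 members found in RefSeq overlap another annotated gene, and for 7 of them that gene has a name and a row of its own: EXOSC9 beside CCNA2, INTS8 beside CCNE2, CSTF1 beside AURKA, ENOSF1 beside TYMS, AFMID beside TK1, RHNO1 beside FOXM1, and ERN2 and DCTN5 beside PLK1. The same limit applies to them.

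**Figure D5:**
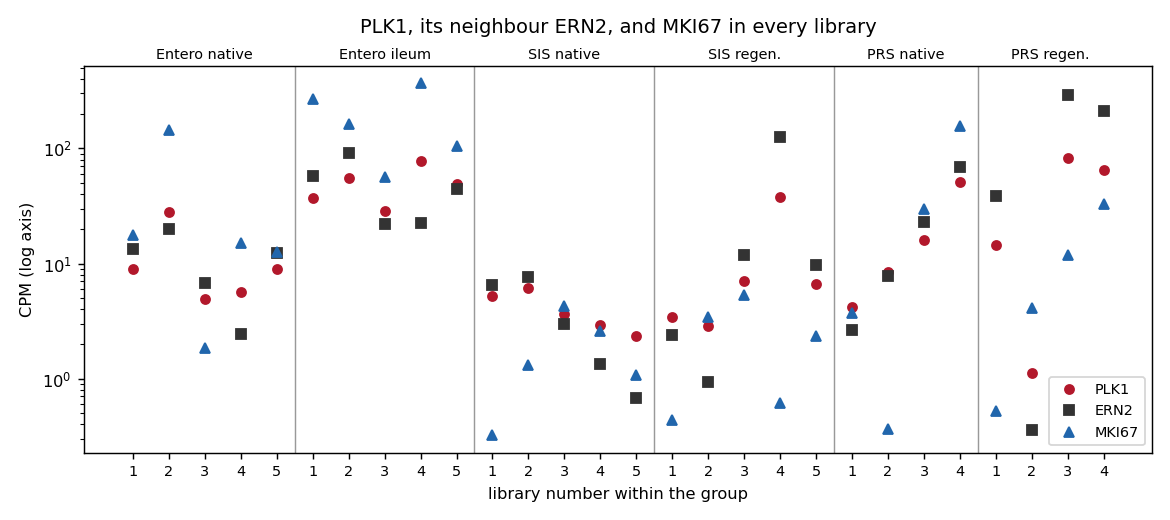
PLK1 (circles), its neighbour ERN2 (squares) and MKI67 (triangles) in CPM on a log axis, for each library by group. In SIS regenerated 4 and PRS regenerated 1, 3 and 4 PLK1 and ERN2 lie above MKI67, whereas in the 5 ileum libraries MKI67 lies above both. PLK1 also lies above MKI67 in other libraries where MKI67 is low, such as SIS native 1 and PRS native 2.

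Other genes of the same pathways, from lists drawn up alongside the 40, were tested in the Entero arm, and those of replication and mitosis that passed were higher in ileum. Of 38 further replication genes with a test, 5 were higher and 0 lower in ileum (7.72% and 7.33% of all genes tested), with a median log2 fold change of 0.87. Of them POLE, the catalytic subunit of DNA polymerase epsilon, rose by 1.88 (SE 0.44, adjusted p = 0.00404) and POLD1, that of polymerase delta, by 1.09 (SE 0.30, adjusted p = 0.0144). PRIM1, the primase, rose by 1.78 (SE 0.58, adjusted p = 0.0384). Of 43 further mitotic genes 7 were higher and 0 lower, all 43 had a positive fold change, and the median was 1.85. CKAP2L and CKAP2, spindle proteins, rose by 1.81 (SE 0.50, adjusted p = 0.0139) and 2.00 (SE 0.63, adjusted p = 0.0306), NCAPD2, a condensin subunit, by 1.29 (SE 0.38, adjusted p = 0.0202), and PTTG1, the securin that guards sister chromatids, by 3.21 (SE 0.99, adjusted p = 0.0283). POLE passed in all 18 alternatives, POLD1 and CKAP2L in 17, NCAPD2 and PTTG1 in 13, CKAP2 in 12 and PRIM1 in 10.

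Of 23 G1-entry genes 1 was higher and 2 lower, shares near those of all genes tested (7.72% and 7.33%), with a median log2 fold change of 0.15. RBL2, the pocket protein p130 of resting cells, fell by 1.21 on the log2 scale (SE 0.28, adjusted p = 0.00398) and passed in all 18 alternatives, and CDK2, the kinase of S-phase entry, fell by 1.06 (SE 0.32, adjusted p = 0.0260). LIN37, a subunit of the DREAM and MuvB complexes, rose by 1.26 (SE 0.36, adjusted p = 0.0179); they passed in 11 and 13 of 18. CDK6, a D-cyclin kinase, was at 1.11 (SE 0.43, adjusted p = 0.0792). Of 10 CDK inhibitors and brakes 2 were higher and 0 lower, with a median of 0.79. CDKN2B, the inhibitor p15 of CDK4 and CDK6, rose by 2.60 (SE 0.57, adjusted p = 0.00239), and PKMYT1, which phosphorylates and restrains CDK1, by 2.39 (SE 0.60, adjusted p = 0.00735). Both passed in all 18 alternatives. CDKN3, a phosphatase of CDKs, was at 2.50 (SE 1.04, adjusted p = 0.108), and CDKN1C, the inhibitor p57, at -0.81 (SE 0.40, adjusted p = 0.184).

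In the scaffold arms 0 of these further replication, mitotic, G1 and inhibitor genes were called against native bladder by edgeR. An unadjusted p under 0.05 was reached by 1, 0, 0 and 4 of them in the SIS arm and by 1, 2, 0 and 1 in the PRS arm, and DESeq2 called 0 in each. Set against ileum, SIS regenerated tissue had 33 of 43 further mitotic and 13 of 38 further replication genes lower (10.2% of all genes tested), and PRS regenerated tissue 14 of 43 and 6 of 38 (6.75% of all genes tested).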

How the data were processed

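Poly-A selected, directional paired-end RNA-seq was made from each of 28 samples, per the labels. The values deposited by the authors are raw read counts per gene, and the tools named are featureCounts 1.5.0-p3, StringTie 1.3.3b and HISAT2 2.0.5, per the submitters' processing notes. The genome build, annotation and strand setting were not given in the sources used here. Counts were tested with edgeR 4.0.16 (R 4.3.3, limma 3.58.1): genes passing filterByExpr (minimum count 10) were kept, libraries were TMM-scaled, and 1 quasi-likelihood model with 6 groups was fitted to all 28 libraries, with Benjamini-Hochberg adjustment over 17177 genes and a threshold of 0.05. Each standard error is the size of the log2 fold change divided by the root of F. Mean levels use log2 CPM with a prior count of 2. The tests were checked on simulated counts with the same dispersion for every gene, no animal effect and no outlying library. That check does not cover paired animals or single libraries that stand apart, as in these data. DESeq2 1.42.0, RLE scaling, library sizes without 13 mitochondrial genes, no filter, only the contrast's groups, the animal as a block and leaving out each library were alternatives. No share of all genes tested is given beside counts at an unadjusted p under 0.05 or by DESeq2.

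The same animal code in the labels pairs native and graft samples of 14 animals. Deviations from group means correlated at -0.19 to 0.61 within animals and passed 0.1 in 7 of 14. No 2 libraries held identical counts. The members and lists were chosen with earlier results of these data known. Values in every library are given for 8 genes fixed by name (MKI67, TOP2A, PCNA, CCNB1, CDK1, MCM2, E2F1 and FOXM1) and for every other member that passed in a graft against native comparison, and of each pathway list the 4 genes with the smallest p in the Entero comparison are named, except 1 that is not reported here. RRM1, MYBL2, PLK1 and the folds of other members were added after their values were seen.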

Additional observations from a re-analysis of the deposited data

Results flagged for a closer look

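In 4 cases a library stood far from the others of its group among 114 groups of values checked by Dixon's gap test, which chance flags in about 5% of groups. The mean level of SIS native library 3 was 2.05 against 1.55 to 1.69 in the other 4. On the log2 CPM scale, PCNA was at 6.46 in Entero native library 2 against 5.40 to 5.54 in the others, CDK1 at -1.20 in SIS regenerated library 4 against 0.92 to 1.31, and MYBL2 at 7.54 in ileum library 4 against 4.76 to 5.37.

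The graft against native change differed between arms in 6 genes by edgeR's test of the difference. Scaffold minus Entero, the log2 difference was -3.57 for CDC20 (adjusted p = 0.00642), -2.03 for MCM4 (adjusted p = 0.00944), -1.68 for MCM7 (adjusted p = 0.0203), -3.07 for CCNB1 (adjusted p = 0.0313), -3.98 for CCNB2 (adjusted p = 0.0431) and -1.30 for PCNA (adjusted p = 0.0468). For SIS alone it was -3.61 for CDC20 (adjusted p = 0.0162) and -2.03 for MCM4 (adjusted p = 0.0240). For PRS alone it was -1.97 for MCM7 (adjusted p = 0.0390) and -3.53 for CDC20 (adjusted p = 0.0411). With the animal as a block, CCNB2, PCNA and MCM7 lost the call for scaffold minus Entero, MCM4 for SIS and MCM7 for PRS.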

How the results depend on the processing

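The count of cell division genes higher in ileum than in native bladder was 11, and it was 7 without a filter on low counts, 21 with DESeq2 and 27 without Entero native 2 and PRS native 4, an alternative chosen after seeing the data, as was leaving out Entero native 2 with ileum 4. Leaving out 1 library gave 3 to 23. Scaffold minus Entero went from 6 to 17 with DESeq2, to 14 and 13 in the 2 added alternatives, and to 2 to 20 without 1 library. SIS minus Entero went from 2 to 14 in the first added alternative and to 1 to 5 without 1 library. PRS minus Entero went from 2 to 9 with DESeq2, 0 with only its 4 groups, 8 in the second added alternative and 0 to 15 without 1 library. PRS regenerated against ileum went from 17 to 30 with DESeq2, 8 in the second added alternative and 4 to 22 without 1 library. DESeq2 called 2 genes between SIS and Entero native and 2 between PRS and SIS native bladder, where edgeR called 0. Shares of all genes tested are not given for these alternatives, so the counts are not set against a general shift in calling. The causes were not tested.

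Paired by animal (replicate block), the ileum count was 20, and the block moved no other count by over 1.5 times, though it ended the calls named above for differences between arms. RRM1 turned to 0.029 under RLE scaling and with DESeq2, to 0.045 in the first added alternative, and ranged from -0.37 to 0.14 without 1 library. In the SIS arm leaving out 1 library gave -0.19 to 0.89 for MKI67, -0.20 to 0.39 for TOP2A and -0.090 to 0.039 for PCNA. In the PRS arm it gave -3.13 to 0.14 for MKI67, -2.31 to 0.32 for TOP2A, -0.46 to 0.13 for PCNA and -1.90 to 0.082 for CCNB1, and the added alternative without PRS native 4 gave 0.14, 0.32, 0.13 and 0.082. The mean level of SIS native bladder was 1.45 over all 40 genes and 1.71 over the 38 tested. A fit of only the contrast's groups was not run for scaffold minus Entero, which uses all 6.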
